A study of Homo sapiens with 6 samples.

Results

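The 10 genes of the unfolded protein response described here, HSPA5, HSP90B1, CALR, PDIA4, SDF2L1, DNAJB9, HERPUD1, EDEM1, SEL1L and XBP1, were measured in MDA-MB-231 cells treated with a plant extract. They were taken by name, as genes of the ATF6 and XBP1 arms, with earlier results of these data known. They are 10 of the 60651 gene rows counted. MDA-MB-231 is an established human cell line of triple-negative breast cancer, labelled wild type and epithelial. The 3 groups were cells given DMSO, the solvent control, and cells given AF-EAE, the ethyl acetate extract of Antenoron filiforme named in the series title, at 75 or at 150 µg/ml. All cells were treated for 24 h, and each group has 2 libraries, 6 in all. The labels do not list the constituents of the extract. The labels call the libraries of a group biological replicates without saying whether they came from separate cultures, so p-values cover the spread among these libraries only, which may be technical.

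The unfolded protein response is the program by which a cell adjusts its endoplasmic reticulum (ER) to the load of unfolded protein. Its sensors are IRE1, PERK and ATF6. IRE1 cuts the XBP1 mRNA so that, after ligation, it encodes an active transcription factor. ATF6 is cleaved in the Golgi to release another. Both factors act on genes of ER chaperones and of ER-associated degradation (ERAD), the route by which misfolded proteins are taken out of the ER and degraded. PERK instead slows translation and favours the transcription factor ATF4. In secretory and tumour cells the program is known for sustaining protein output under stress. A gene count holds the cut and the uncut forms of the XBP1 mRNA together, so it measures the amount of XBP1 transcript and not its splicing.

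The ER stress response element (ERSE), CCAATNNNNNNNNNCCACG, and its shorter form ERSE-II, ATTGGNCCACG, are the elements through which ATF6 and XBP1 are known to act. Both strands of RefSeq promoter windows on GRCh38.p14, from 250 bases before to 50 after the start of each gene, were searched for these letters. All 10 genes had a window, and 2 of them, XBP1 and PDIA4, had 2 windows, 12 in all. An exact ERSE lay in a window of 4 genes and an exact ERSE-II in a window of 2 others, and no exact matches overlapped in these windows. Over all 35116 windows, 0.0769% hold an ERSE and 0.0541% an ERSE-II, and over the 15809 windows of tested genes the shares are 0.114% and 0.0949%. The stretches below are printed because they set the genes that share the element beside how each responded. They run 5′ to 3′ along the gene, and capitals mark the exact match on either strand.
HSPA5, chr9:125241376-125241424, minus strand: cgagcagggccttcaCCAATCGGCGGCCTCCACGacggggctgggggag
HSP90B1, chr12:103930201-103930354, plus strand: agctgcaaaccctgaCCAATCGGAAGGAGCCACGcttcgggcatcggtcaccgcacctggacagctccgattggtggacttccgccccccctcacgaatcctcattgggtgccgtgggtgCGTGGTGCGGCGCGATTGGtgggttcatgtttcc
CALR, chr19:12938369-12938417, plus strand: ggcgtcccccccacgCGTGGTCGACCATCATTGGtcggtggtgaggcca
XBP1, chr22:28800588-28800636, minus strand: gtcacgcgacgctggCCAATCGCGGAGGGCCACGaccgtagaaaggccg
HERPUD1, chr16:56932010-56932050, plus strand: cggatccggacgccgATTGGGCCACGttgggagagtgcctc
SDF2L1, chr22:21642099-21642139, plus strand: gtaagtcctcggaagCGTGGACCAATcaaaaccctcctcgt

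The first base of the ERSE lies 66 bases before the start in HSPA5, 52 in XBP1 and 225 in CALR. HSP90B1 holds 2, at 194 and 89 bases before the start. All distances here are from the RefSeq start of the window, which can differ from the GENCODE gene coordinates given below. By GENCODE, HSP90B1 begins at 103930107, before its printed stretch (103930201 to 103930354), so its 2 copies lie inside the gene. The GENCODE starts of HERPUD1, 56932048, and of XBP1, 28800597 on the minus strand, fall within their printed stretches. The ERSE-II of HERPUD1 begins 117 bases before the start and that of SDF2L1 188 bases before it. The windows of DNAJB9, EDEM1, SEL1L and PDIA4 hold neither exact form. That of DNAJB9, from 108569624 to 108569923, lies wholly after its GENCODE start, 108569568, so the bases before that start were not searched. None of the 12 windows holds the XBP1-type element TGACGTGG (0.729% of all windows do) or the cyclic AMP element TGACGTCA (1.85%). The ATF4-type element TGATGNAA occurred in the HERPUD1 window, 176 bases before the start, and in 3.62% of all windows. A match describes the letters and is not evidence of binding.

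Reads in genes numbered 15621103 to 17113722 per library, and each of the 10 genes had between 242 and 29706 reads in every library. Levels are CPM, a gene's reads as a share of all reads in genes on a common scale, adjusted between libraries by TMM, which sets the bulk of genes equal. Log2 fold changes, their standard errors (SE) and adjusted p-values come from edgeR, fitted over 15589 genes, with a threshold of 0.05. All 10 genes passed the filter on low counts. Among markers of the labelled epithelial type, CDH1 had at most 2 reads in a library. The summed level of the 6 epithelial markers was 771 to 782 CPM with DMSO, 536 to 549 at 75 µg/ml and 437 to 452 at 150 µg/ml. KRT8 and KRT18 make up most of this sum, and EPCAM, KRT7 and KRT19 did not pass the test at 75 µg/ml. At 150 µg/ml KRT19 was higher (log2 fold change 0.28, adjusted p = 0.0146) and KRT7 lower (-0.79, adjusted p = 7.6e-06). The summed level of the 5 mesenchymal markers was 2220 to 2360, 1550 to 1570 and 1220 to 1240 CPM at the same doses. AXL, VIM and FN1 were lower at both doses, ZEB1 did not pass the test at either, and CDH2 had at most 7 reads in a library. The part of these markers in the results below was not tested. Leukocyte markers summed to at most 0.428 CPM, with PTPRC and CD3E at 0 reads, and 7 fibroblast and endothelial markers to at most 12.6 CPM, with DCN at 0.

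At the lower dose XBP1 and the 4 ERAD genes rose, and so did the chaperone genes HSPA5 and PDIA4. Of the 10 genes, 7 were higher at 75 µg/ml than in DMSO, against 19.2% of all genes tested. None was lower by edgeR, and 0 were also lower at an unadjusted p under 0.05, by DESeq2 and by limma-voom, against 19.4% of all genes by edgeR. At 150 µg/ml against DMSO 6 were higher and 1, CALR, was lower, beside 25.8% and 25.7% of all genes. From 75 to 150 µg/ml 6 were higher and CALR was lower again, beside 9.51% and 12.5%. The median log2 fold change of the 10 was 0.28, 0.52 and 0.16 in these 3 comparisons, against 0.02, 0.03 and 0.00 over all tested genes. The libraries of the groups did not overlap for 7, 9 and 9 of the 10 genes in these comparisons, as for 68.5%, 74.8% and 60.6% of all tested genes. The first 2 comparisons share the DMSO libraries, and the third shares the treated ones with both. In cultures measured in bulk, fewer cells with a transcript and less of it per cell cannot be told apart.

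XBP1, the transcription factor gene, rose with each dose. It was at 88.3 and 87.9 CPM in the DMSO libraries, 150.5 and 152 CPM with 75 µg/ml and 217 and 193 CPM with 150 µg/ml. The groups did not overlap at any step. The level at 150 µg/ml was 2.32-fold that in DMSO (log2 fold change 1.22, SE 0.0601, adjusted p = 2.6e-11, edgeR), and the lower dose gave 1.72-fold (0.78, SE 0.0608, adjusted p = 2.9e-08). The step between the doses was also past the threshold (0.44, SE 0.0574, adjusted p = 3.4e-05). XBP1 (ENSG00000100219.16) lies on the minus strand of chromosome 22, from 28794555 to 28800597 in GENCODE 29 (GRCh38).

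**Figure D1:**
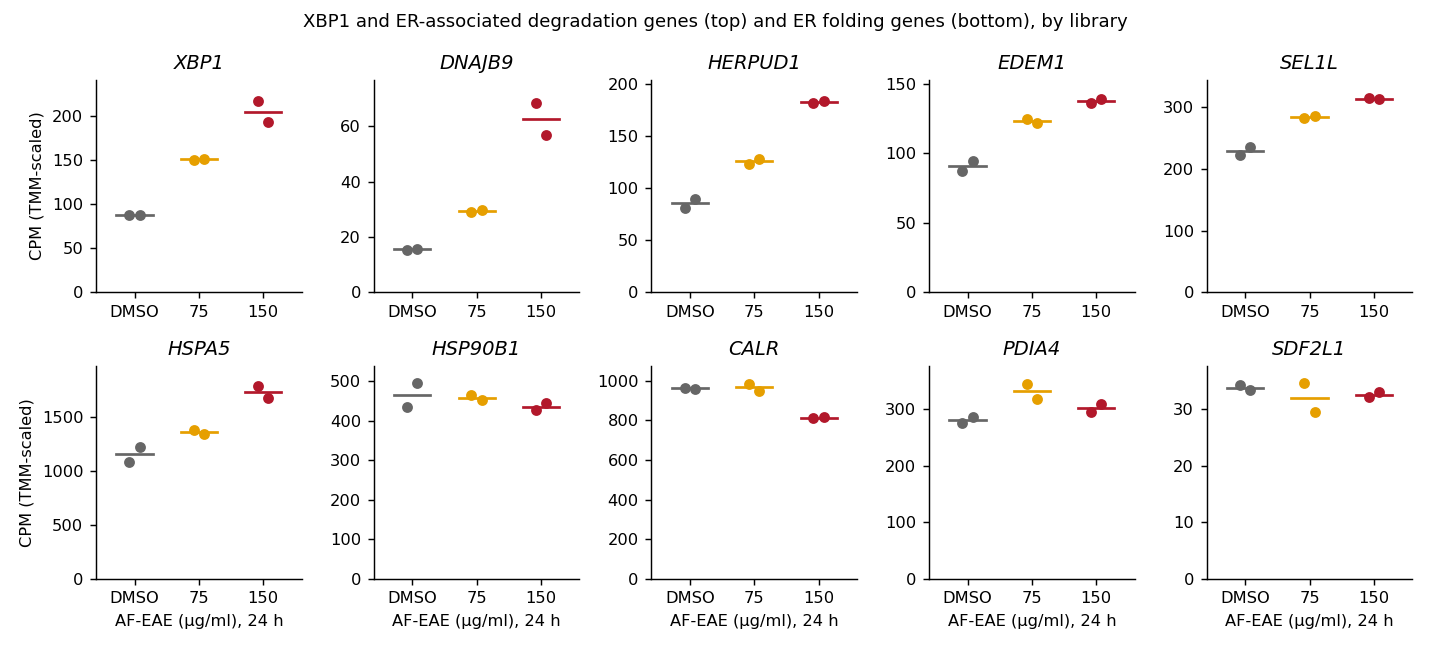
TMM-scaled CPM (y axis, from 0) of each gene against dose (x axis, µg/ml, 24 h). Points are libraries and bars the mean of the 2 libraries. The 5 genes in the top row rise at each dose, while in the bottom row HSPA5 rises, CALR falls to 810 and 815 CPM with 150 µg/ml, and the points of HSP90B1 and SDF2L1 overlap between DMSO and 75 µg/ml.

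The ERAD genes moved together in direction and differed widely in size. DNAJB9 encodes ERdj4, an ER-resident J-domain co-chaperone of HSPA5 that hands substrates to ERAD and restrains IRE1. It had the largest rise of the 10, with 15.3 and 15.8 CPM with DMSO, 28.97 and 29.6 CPM with 75 µg/ml and 68.4 and 56.9 CPM with 150 µg/ml. The 150 µg/ml libraries differed from each other by more than those of the other groups but lay above both. The log2 fold change was 0.91 (SE 0.108, adjusted p = 3.7e-06) at the lower and 2.01 (SE 0.102, adjusted p = 3.9e-11) at the higher dose by edgeR, which is 4.03-fold at the higher one. DNAJB9 (ENSG00000128590.5) lies on chromosome 7 from 108569568 to 108574850, and 6.45% of its exonic length overlaps PNPLA8 and THAP5, where the assignment of reads is uncertain, since the strand setting is not known here.

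HERPUD1 encodes a ubiquitin-like membrane protein that organises the ERAD ubiquitin ligase complex. Its level was 81.0 and 89.8 CPM with DMSO, 123 and 128 CPM with 75 µg/ml and 182 and 184 CPM with 150 µg/ml, with no overlap between groups. The rise was 1.47-fold at 75 µg/ml (log2 0.56, SE 0.06, adjusted p = 1.2e-06) and 2.14-fold at 150 µg/ml (1.10, SE 0.0589, adjusted p = 7.2e-11). The step between the doses, 0.54 on the log2 scale, was close in size to the step up to 75 µg/ml. HERPUD1 (ENSG00000051108.15) is a plus-strand gene of chromosome 16, from 56932048 to 56944863.

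EDEM1, which recognises trimmed mannose chains on misfolded glycoproteins, and SEL1L, the scaffold of the HRD1 ubiquitin ligase, rose less. EDEM1 was at 87.4 and 94.2 CPM with DMSO, 124 and 121 CPM with 75 µg/ml and 136 and 139 CPM with 150 µg/ml. SEL1L was at 222 and 235 CPM with DMSO, 281 and 284 CPM with 75 µg/ml and 313 CPM in both libraries with 150 µg/ml. Most of their difference from DMSO was reached at the lower dose. Against DMSO, EDEM1 had log2 fold changes of 0.44 (SE 0.0576) and 0.60 (SE 0.0572) at the 2 doses and SEL1L of 0.31 (SE 0.0478) and 0.45 (SE 0.0477), with adjusted p-values from 1.1e-07 to 6.8e-05. Their steps from 75 to 150 µg/ml, 0.16 (adjusted p = 0.044) and 0.15 (adjusted p = 0.033), did not pass when any 1 of the 4 treated libraries was left out, where adjusted p-values ran from 0.0978 to 0.226. EDEM1 (ENSG00000134109.11) lies on chromosome 3 from 5187646 to 5219957, with 9.66% of its exonic length shared with another gene, and SEL1L (ENSG00000071537.14) on chromosome 14 from 81471549 to 81533861.

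**Figure D2:**
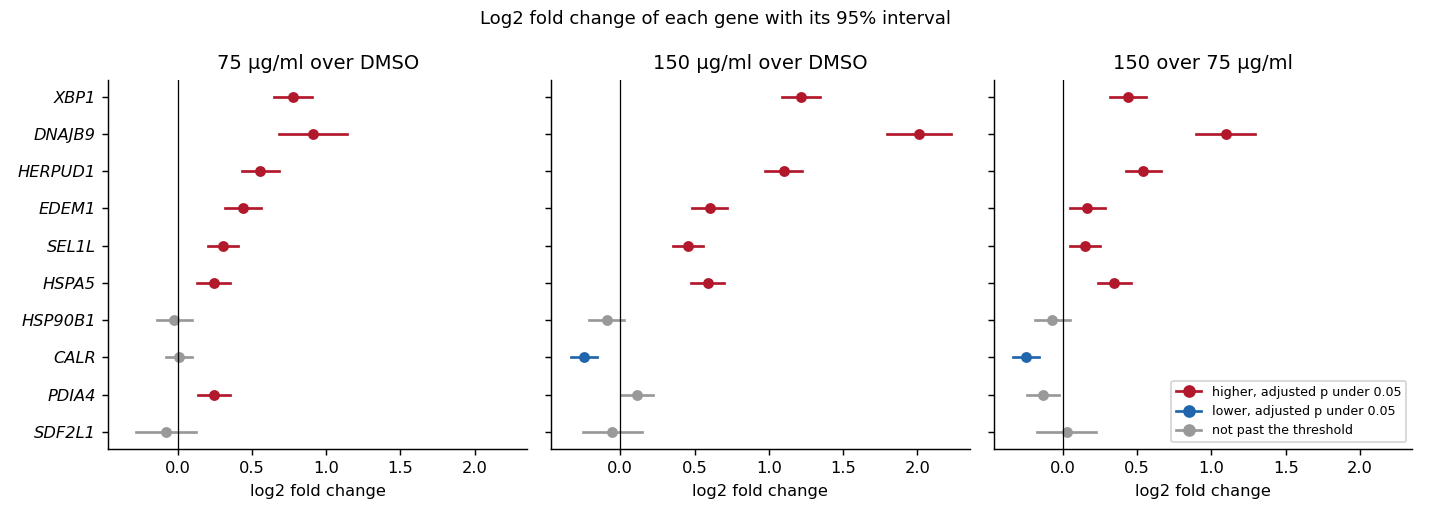
Log2 fold change (x axis) of each gene (rows) with its 95% interval in 3 comparisons, coloured by call at an adjusted p of 0.05. DNAJB9 is farthest to the right in each panel, with 2.01 at 150 µg/ml over DMSO, and CALR lies left of 0 at 150 µg/ml against DMSO and against 75 µg/ml.

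Among the folding genes HSPA5 was higher than in DMSO at both doses. HSPA5 encodes BiP, the ER Hsp70 that binds nascent chains and holds the stress sensors inactive. It was at 1083 and 1227 CPM with DMSO, 1384 and 1349 CPM with 75 µg/ml and 1795 and 1678 CPM with 150 µg/ml, and the groups did not overlap. The level was 1.18-fold (log2 0.24, SE 0.0533, adjusted p = 0.0016) at 75 µg/ml and 1.5-fold (0.59, SE 0.0534, adjusted p = 6.2e-08) at 150 µg/ml. At 75 µg/ml the log2 fold change was 0.153 without DMSO replicate 1 (adjusted p = 0.0279) and 0.37 under total counts. HSPA5 (ENSG00000044574.9) lies on the minus strand of chromosome 9, from 125234853 to 125241330. Its copy HSPA5P1 had 1 read in all 6 libraries together.

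HSP90B1 encodes GRP94, the ER Hsp90. It was at 434.5 and 495 CPM with DMSO, 464 and 452 CPM with 75 µg/ml and 427 and 445 CPM with 150 µg/ml, and the DMSO libraries spanned those of 75 µg/ml. Its log2 fold change was -0.02 at 75 µg/ml (95% interval -0.14 to 0.09, adjusted p = 0.79) and -0.09 at 150 µg/ml (-0.21 to 0.02, adjusted p = 0.17). A rise as large as that of HSPA5 at 150 µg/ml lies outside these intervals. DMSO replicate 1 decided the call at 150 µg/ml, since without it HSP90B1 was lower by 0.19 (log2 fold change -0.19, adjusted p = 0.00672), and without DMSO replicate 2 the value was 0.00. HSP90B1 (ENSG00000166598.16) lies on chromosome 12 from 103930107 to 103953645, with 7.60% of its exonic length shared with MIR3652, TTC41P and UQCC6.

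CALR encodes calreticulin, the calcium-binding lectin chaperone of glycoproteins. It was at 964 and 960 CPM with DMSO, 986 and 947 CPM with 75 µg/ml and 810.3 and 815 CPM with 150 µg/ml. The 150 µg/ml libraries lay below the other 4, which overlapped. The log2 fold change was 0.01 at 75 µg/ml (95% interval -0.08 to 0.10) and -0.24 at 150 µg/ml (SE 0.0418, adjusted p = 0.0001). Both values depended on scaling. With total read counts in place of TMM, CALR was higher at 75 µg/ml (0.13, adjusted p = 0.0154), and the value at 150 µg/ml was -0.06 (adjusted p = 0.266). CALR (ENSG00000179218.15) lies on chromosome 19 from 12938578 to 12944489, with 9.95% of its exonic length shared with another gene.

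PDIA4, an ER protein disulfide isomerase gene, was highest at 75 µg/ml. It was at 275 and 285.5 CPM with DMSO, 345 and 319 CPM with 75 µg/ml and 295.5 and 310 CPM with 150 µg/ml. Both treated groups lay above DMSO in every library, and the 75 µg/ml libraries above those at 150 µg/ml. Only the 75 µg/ml difference from DMSO passed the test (log2 fold change 0.24, SE 0.0511, adjusted p = 0.001), with 0.37 under total counts. At 150 µg/ml the value was 0.11 (SE 0.0512, adjusted p = 0.08), which passed under total counts (0.30, adjusted p = 8.2e-05) and with a stricter filter on low counts (0.15, adjusted p = 0.0179). The step from 75 to 150 µg/ml was -0.13 (adjusted p = 0.072). PDIA4 (ENSG00000155660.11) lies on the minus strand of chromosome 7, from 149003062 to 149028641.

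SDF2L1 encodes a stress-inducible ER protein that works in chaperone complexes with J-domain proteins. It had 34.2 and 33.3 CPM with DMSO, 34.5 and 29.4 CPM with 75 µg/ml and 32.2 and 32.9 CPM with 150 µg/ml. The 75 µg/ml libraries spanned all the others. Its log2 fold changes against DMSO were -0.08 (95% interval -0.28 to 0.12, adjusted p = 0.55) at 75 µg/ml and -0.05 (-0.25 to 0.15, adjusted p = 0.67) at 150 µg/ml. These became 0.05 and 0.13 under total counts, where HSP90B1 was at 0.10 and 0.09, none of them past the threshold. SDF2L1 (ENSG00000128228.5) lies on chromosome 22 from 21642261 to 21644298.

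Ratios of genes within a library do not depend on the scaling between libraries. For each read of HSP90B1 there were 2.49 and 2.48 reads of HSPA5 with DMSO, 2.98 and 2.99 with 75 µg/ml and 4.20 and 3.77 with 150 µg/ml. HSPA5 and HSP90B1 thus differed between the DMSO libraries in the same proportion, and their ratio separated the 3 groups. Reads of XBP1 per HSP90B1 read were 0.203 and 0.177 with DMSO, 0.324 and 0.336 with 75 µg/ml and 0.507 and 0.434 with 150 µg/ml. For DNAJB9 the ratios were 0.0351 and 0.032 with DMSO, 0.0624 and 0.0656 with 75 µg/ml and 0.16 and 0.128 with 150 µg/ml. The ratio of CALR to HSP90B1 overlapped between DMSO (2.22 and 1.94) and 75 µg/ml (2.13 and 2.10), and was 1.90 and 1.83 at 150 µg/ml, below the DMSO libraries. The ratio of PDIA4 was 0.632 and 0.576 with DMSO, 0.743 and 0.706 with 75 µg/ml and 0.692 and 0.696 with 150 µg/ml. The ratios were not tested, and these values are a description.

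**Figure D3:**
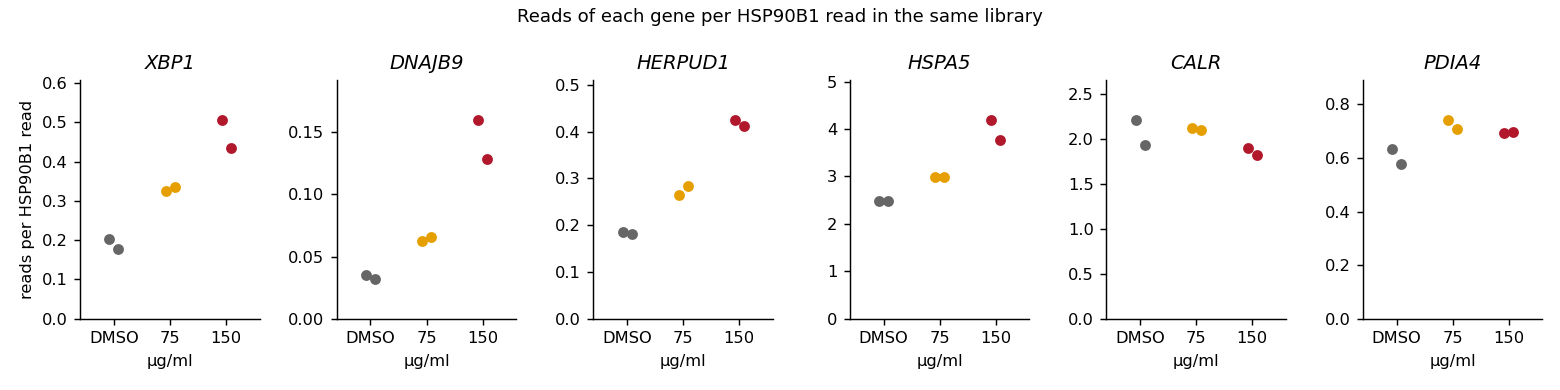
Reads of 6 genes per HSP90B1 read in the same library (y axis, from 0) against dose (x axis, µg/ml), 1 point per library. The XBP1, DNAJB9, HERPUD1 and HSPA5 ratios separate all 3 groups, with HSPA5 near 2.5 in DMSO and at 4.20 and 3.77 at 150 µg/ml.

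Per kilobase of exon, levels spanned a wide range. In DMSO the order was CALR (354 ± 1.04 CPM per kilobase), HSPA5 (296 ± 26.0), HSP90B1 (99.0 ± 9.17), PDIA4 (85.5 ± 2.32), SDF2L1 (30.7 ± 0.627), XBP1 (29.1 ± 0.0789), SEL1L (23.9 ± 1.00), HERPUD1 (16.6 ± 1.21), EDEM1 (13.4 ± 0.708) and DNAJB9 (5.48 ± 0.146; SD, n = 2 each). No neighbours in this order overlapped between libraries. At 75 µg/ml CALR (356 ± 10.3) and HSPA5 (350 ± 6.37) overlapped, as did PDIA4 with HSP90B1 and SEL1L with SDF2L1. At 150 µg/ml HSPA5 (444 ± 21.2) lay above CALR (299.5 ± 1.32), and XBP1 (67.6 ± 5.56) stood above SDF2L1 (29.6 ± 0.488). DNAJB9 reached 22.1 ± 2.86 CPM per kilobase there and overlapped EDEM1 (20.4 ± 0.267), while HSP90B1 and PDIA4 also overlapped. With the longest transcript as length, SDF2L1 and XBP1 changed places in DMSO, as did SEL1L and HERPUD1.

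Genes with and without an ERSE in the window were both among those that rose. Of the 6 genes with an exact ERSE or ERSE-II printed above, HSPA5, XBP1 and HERPUD1 were higher at 150 µg/ml, CALR was lower and HSP90B1 and SDF2L1 were not past the test. Of the 4 without one, DNAJB9, EDEM1 and SEL1L were higher and PDIA4 was not past the test at that dose. With 1 mismatch allowed in the CCACG end, SEL1L also holds an ERSE, 207 bases before the start. HSP90B1, with 2 exact copies, had a log2 fold change of -0.09. DNAJB9, with none in its window, which lies inside the gene by GENCODE, was at 2.01. Outside the 10, 25 tested genes hold an exact ERSE or ERSE-II. Of these, 9 were higher and 8 lower at 150 µg/ml against DMSO, beside 25.8% and 25.7% of all genes. Their median was 0.02, against 0.03 over all genes. They include FICD, which encodes an enzyme that modifies BiP (log2 fold change 1.03, SE 0.116), and SERP1, a stress-associated ER membrane protein gene (0.43, SE 0.0493). PDIA6, a disulfide isomerase gene, was at -0.34 (SE 0.056). FICD, SERP1 and PDIA6 were chosen after their values were seen. Of the other ER folding genes with an exact match, ERO1B was at 0.89, HYOU1 at 0.14, CANX at 0.11 and CRELD2 at -0.14.

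The sensor genes were measured apart from the 10. ERN1, which encodes IRE1, was at 23.9 and 24.1 CPM with DMSO, 40.5 and 36.3 CPM with 75 µg/ml and 63.8 and 55.7 CPM with 150 µg/ml. It rose at both doses (log2 fold change 0.68, SE 0.0958, and 1.31, SE 0.0926, adjusted p = 2.4e-05 and 2.4e-09). ATF6 rose by a like amount at each dose (0.32 and 0.35, adjusted p = 0.0001 and 2.6e-05). EIF2AK3, which encodes PERK, rose at 150 µg/ml (0.36, adjusted p = 0.0042) and was at 0.19 at 75 µg/ml (adjusted p = 0.13), where total counts gave 0.32 (adjusted p = 0.0148). RTCB, the ligase that joins the cut XBP1 mRNA, fell at both doses (-0.30 and -0.45, adjusted p = 0.00024 and 1.7e-06). MBTPS1, a protease that cleaves ATF6, was lower at 150 µg/ml (-0.14, adjusted p = 0.02), but 0.05 under total counts, and did not pass without DMSO replicate 1 or 2 or replicate 1 of 150 µg/ml (adjusted p from 0.0506 to 0.117). The second protease gene MBTPS2 was at 0.11 (adjusted p = 0.24), and at 0.30 under total counts (adjusted p = 0.00259). ATF6B had at most 15 reads in a library and was not tested. Of the 6 sensor and processing genes tested, 3 rose and 2 fell at 150 µg/ml, beside 25.8% and 25.7% of all genes. Under total counts, which moved the median of all genes to 0.22, 4 rose and 1 fell at that dose.

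Other genes of ER folding and of ERAD were mixed. Of 36 other folding genes tested of 37 listed, 13 rose and 4 fell at 75 µg/ml with TMM, beside 19.2% and 19.4% of all genes. Total counts gave 21 and 0, but moved the median of all genes to 0.14. The median of the list was 0.109 with TMM, and 0.095 without replicate 1 of that dose. At 150 µg/ml 17 rose and 7 fell, beside 25.8% and 25.7% of all genes, with a median of 0.12 against 0.03 over all genes. ERO1B, an oxidase that feeds disulfide formation, rose at 150 µg/ml (23.1 and 24.4 CPM, against 11.5 and 14.1 CPM in DMSO). ERP44, a thiol-dependent retention chaperone gene, had a log2 fold change of 0.45 (SE 0.069) and the thioredoxin-like TXNDC12 of 1.12 (SE 0.196). Other genes share 49.71% of the exonic length of TXNDC12. The genes that fell included both subunits of glucosidase II, GANAB (511 and 529 CPM with 150 µg/ml, against 723 and 730 CPM in DMSO) and PRKCSH (284 and 311 CPM, against 432 and 400 CPM), and UGGT1, which re-glucosylates unfolded glycoproteins (-0.36, SE 0.0483). GANAB, PRKCSH and UGGT1 act with CALR on the same sugar chains, as background. In the same list CANX (0.11) and MOGS (0.19) were higher at 150 µg/ml, UGGT2 was lower (-0.53) and PDIA3 was not past the test (0.03).

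Of 24 other ERAD genes tested of 25 listed, 7 rose and 3 fell at 75 µg/ml (12 and 0 under total counts), beside 19.2% and 19.4% of all genes. At 150 µg/ml 11 rose and 2 fell (19 and 1 under total counts), beside 25.8% and 25.7% of all genes. The medians were 0.04 and 0.11, against 0.02 and 0.03 over all genes. Without replicate 2 of 75 µg/ml 1 fell at that dose. EDEM2, the paralogue of EDEM1 that starts mannose trimming, was at 50.5 and 48.2 CPM with 150 µg/ml, against 23.0 and 22.7 CPM in DMSO (log2 fold change 1.11, SE 0.0855, adjusted p = 7.9e-09). SYVN1, the HRD1 ubiquitin ligase that SEL1L holds, was at 144 and 142 CPM, against 93.0 and 95.1 CPM in DMSO (0.61, SE 0.0541). UBXN4, a membrane adaptor of the VCP ATPase, was at 0.42 (SE 0.0515). The falls were UBE2G2, a ubiquitin-conjugating enzyme gene (-0.56, SE 0.0582), and VCP itself (-0.17, SE 0.0452), which was at 0.02 under total counts.

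Genes of translocation into the ER and export from it numbered 13 higher and 11 lower of 40 at 150 µg/ml with TMM. Total counts gave 26 and 2, but moved the median of all genes to 0.22. The TMM shares are near the 25.8% and 25.7% of all tested genes by TMM, with a median of 0.04. Without DMSO replicate 2 or replicate 2 of 150 µg/ml 7 were lower. The COPII coat genes SEC24D (log2 fold change 0.86, SE 0.0619) and SEC23B (0.53, SE 0.0542) and the Golgi regulator ARFGAP3 (0.53, SE 0.0884) rose. SSR3, a translocon-associated subunit (-0.58, SE 0.0467), RPN2, of the oligosaccharyltransferase (-0.40, SE 0.0464), and STT3B, one of its catalytic subunits (-0.26, SE 0.0458), fell. STT3B did not pass under total counts (-0.07, adjusted p = 0.218).

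Most genes listed under the PERK and ATF4 arm rose at both doses, and the activity of PERK was not measured. Of 15 genes tested of 16 listed, 11 rose and 1 fell at 75 µg/ml, beside 19.2% and 19.4% of all genes. At 150 µg/ml 13 rose and 1 fell, beside 25.8% and 25.7%. The medians were 1.19 and 1.81, against 0.02 and 0.03 over all genes. At 75 µg/ml 2 fell without replicate 2 of that dose or without either 150 µg/ml library. TRIB3, a pseudokinase gene, was at 251 and 231 CPM with 150 µg/ml, against 45.8 and 50.3 CPM with DMSO, and the hormone gene ADM2 was at 62.0 and 60.3 CPM, against 3.91 and 4.84 CPM. SESN2, a stress-inducible regulator of mTORC1, had a log2 fold change of 2.87 (SE 0.0883) and the transcription factor gene ATF5 of -0.95 (SE 0.125). In these medians the list stood above the 10 genes (0.28 and 0.52), a difference that was not tested.

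**Figure D4:**
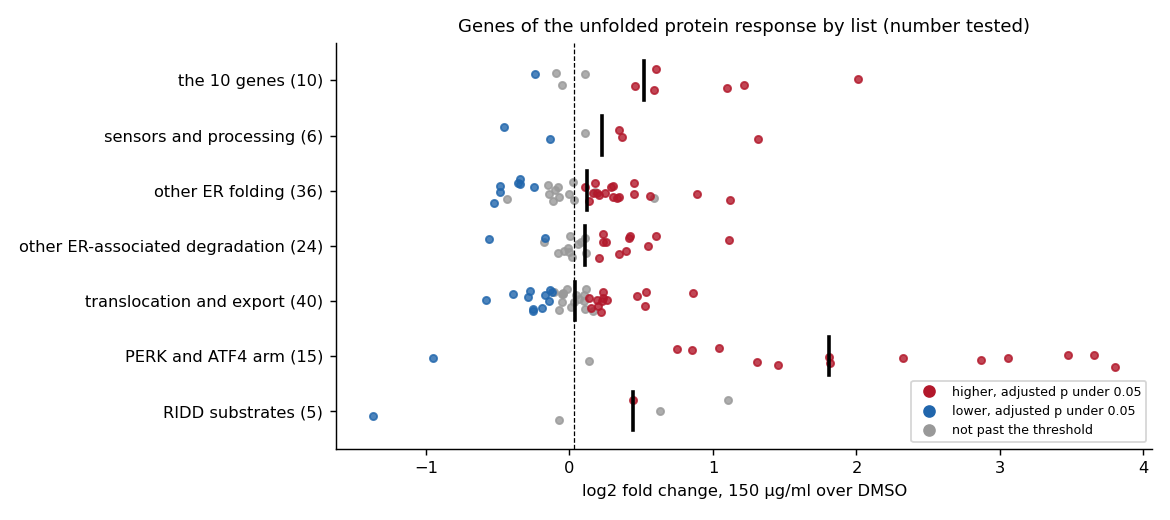
Log2 fold change at 150 µg/ml over DMSO (x axis) of each tested gene, by list, with the number tested in brackets and thick bars for list medians. The dashed line is the median of all tested genes, 0.03, and the medians run from 0.04 for translocation and export to 1.81 for the PERK and ATF4 arm.

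IRE1 is also known to cut other ER-bound mRNAs, a process called RIDD. Of 6 such substrates listed 5 were tested. At 75 µg/ml 3 were higher and 0 lower by edgeR, beside 19.2% and 19.4% of all genes. The number lower was also 0 by DESeq2, by limma-voom and at an unadjusted p under 0.05. HGSNAT was at 0.31 at that dose, and at 0.25 without its replicate 1. SCARA3 was at -0.32 at 75 µg/ml (adjusted p = 0.134, edgeR). The higher dose gave 1 higher and 1 lower, beside 25.8% and 25.7% of all genes. At 150 µg/ml SCARA3 fell (4.47 and 3.66 CPM, against 10.5 CPM in both DMSO libraries; log2 fold change -1.37, SE 0.176, adjusted p = 4.4e-06) and HGSNAT rose (0.44, SE 0.0768). The other 3, BLOC1S1 (1.10), PDGFRB (0.63) and COL6A1 (-0.07), were not past the test at that dose. Under total counts 2 substrates were higher there.

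The genes whose profile over the 6 libraries lay nearest to that of HSPA5 were EFL1, TES and FRMD8. Their Euclidean distances were 0.0652, 0.0672 and 0.0725 on centred log2 CPM, among 9443 genes of at least 10 CPM outside the 10. Within the 10, SEL1L was nearest to HSPA5, at 0.227. For HERPUD1 the nearest were CEP120 (0.0896), TTC39B (0.147) and MOB3C (0.147), and within the 10 XBP1 (0.279). CEP120 was at 42.6 and 44.8 CPM with DMSO, 63.6 and 62.4 CPM with 75 µg/ml and 92.8 and 94.2 CPM with 150 µg/ml, at each dose about in the same proportion as HERPUD1. These distances describe 6 libraries.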

How the data were processed

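The authors deposited raw counts of reads for every gene, as a file for each library. The submitters' processing notes name HISAT2 2.2.1, HTSeq 2.0.2 and hg38. Annotation release, counting options and strand setting were not found in the labels or files. HTSeq's 5 summary rows were left out. Reads outside genes were 6.32% to 7.98% and ambiguous reads 11.0% to 11.5% of a library.

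Counts were fitted with edgeR 4.0.16 in R 4.3.3 over all 6 libraries, by TMM scaling, its default filter, group means, the quasi-likelihood F-test and Benjamini-Hochberg adjustment over 15589 genes. The fit had 3 residual and 13.8 prior degrees of freedom. SE values come from the F statistic and intervals use 16.8 degrees of freedom. A count of 3 reads corresponds to 0.174 to 0.196 CPM. Replicates differed by more than sampling noise (chi-square per degree of freedom 3.48 for DMSO, 2.78 for 75 µg/ml and 3.53 for 150 µg/ml).

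Symbols came from an identifier table, coordinates and exon lengths from GENCODE 29, and promoter windows from RefSeq. The 10 genes and the other lists were chosen with earlier results of these data known. Named genes were the 10, the 7 sensor and processing genes, from each further list the 3 higher and 3 lower genes with the smallest p at 150 µg/ml, and the 3 nearest profiles to HSPA5 and to HERPUD1. In simulated data for 150 µg/ml against DMSO over 15199 genes, edgeR recovered 89.6% of genes changed by 0.5 on the log2 scale. It recovered 100% of those changed by 1 or 2, and 6.31% of its calls were false. Each of the other comparisons gave 85.1% at 0.5. The simulation changed few genes, none with low counts, and gave every gene the same spread. It held no scaling shift between groups, so its recovery may not carry over to these data. Alternatives were DESeq2 1.42.0 and its size factors, limma-voom (limma 3.58.1), total counts, other filters, a fit of 2 groups, the replicate block, a threshold of 0.01 and each library left out.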

Additional observations from a re-analysis of the deposited data

How the results depend on the processing

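Each log2 fold change of the 10 genes was recomputed under 14 other settings in each of 3 comparisons, 420 values, of which 388 kept their direction and their side of the threshold, 12 no longer passed (CALR under total counts, and otherwise the steps of EDEM1 and SEL1L between doses), 6 newly passed and 14 changed sign. The rises of XBP1, DNAJB9, HERPUD1, EDEM1, SEL1L and HSPA5 over DMSO passed at both doses in all of these. Total counts move the median of all genes to 0.14 at 75 µg/ml and 0.22 at 150 µg/ml over DMSO, and to 0.06 between doses. Under total counts HSP90B1 was at 0.1042 and 0.0945 and SDF2L1 at 0.0485 and 0.1345 at the 2 doses over DMSO, VCP at 0.0059, 0.0189 and 0.013 in the 3 comparisons, PRKCSH at 0.0239 at 75 µg/ml and MBTPS1 at 0.0509 at 150 µg/ml. There 0 of the 10 genes were lower at 150 µg/ml by edgeR, and 0 at an unadjusted p under 0.05. DESeq2 with its own size factors gave 1, as did limma-voom and edgeR, both with TMM. Genes of the other lists that were lower numbered 5, 11 and 9 in the 3 comparisons, against 19, 24 and 15 with TMM. Over all genes 4494 were higher and 1819 lower at 75 µg/ml (2989 and 3026 with TMM), and 2544 were lower at 150 µg/ml (4000 with TMM). The CALR value at 75 µg/ml was -0.0092 with DESeq2 size factors and with the DESeq2 test, -0.0004 with no filter and 0.13 under total counts, where it passed and 8 of the 10 genes were higher. With no filter 2 of the 10 genes were lower from 75 to 150 µg/ml. At an adjusted p of 0.01 the lower genes of the other lists numbered 12 at 75 µg/ml and 9 between doses, and all genes between doses 722 higher and 1161 lower. The DESeq2 test called 980 higher genes between doses. The cause of these differences was not tested beyond the changed setting.

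With each library left out in turn, the log2 fold change over DMSO at 75 µg/ml ran from -0.1157 to 0.073 for HSP90B1, from -0.0319 to 0.0348 for CALR and from -0.2065 to 0.0318 for SDF2L1. At 150 µg/ml HSP90B1 ran from -0.1873 to 0.0014. Between doses SDF2L1 ran from -0.0869 to 0.1499 and VCP from -0.0912 to 0.0009. Of the 10 genes 1 to 2 were lower at 150 µg/ml over DMSO, with HSP90B1 added without DMSO replicate 1. Between doses 1 to 2 were lower, with PDIA4 added without replicate 2 of 75 µg/ml. In the other lists 11 to 20 genes were lower at 75 µg/ml (11 without replicate 2 of that dose), and between doses 18 to 31 were higher and 6 to 16 lower. Over all genes 592 to 1612 were higher and 915 to 2105 lower between doses. The lowest of these 4 counts came without replicate 1 of 150 µg/ml, and without replicates 1 and 2 of 75 µg/ml 807 and 968 genes were higher. A lone library was assumed to vary like the other groups.

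The replicate numbers were not shown to pair the samples, since the correlation across genes of the difference between replicates 1 and 2 was 0.06, 0.04 and 0.01 between groups. With the replicate block 7 of the 10 genes were higher at 75 µg/ml, and 6 higher and 1 lower at 150 µg/ml and between doses, as without it, and over all genes 3125 were higher at 75 µg/ml. With 1 mismatch allowed in the CCACG end, 7 genes held an ERSE and 3 an ERSE-II, where 1.05% and 0.903% of all windows did. Among the 10, DNAJB9 and SDF2L1, with the lowest levels in DMSO, had the widest intervals, so smaller changes are harder to detect there.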
